A study of Mus musculus with 12 samples.

Results

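The collagen genes of the mouse retina were taken as every id that both deposited tables list under a symbol of the form Col, a number, a and a number, which gave 44 genes among 38720 ids. They were sorted by what their chains are known to build into 6 fibrillar mesenchymal collagens, 9 type VI and fibril-associated mesenchymal collagens, 9 basement membrane collagens, 7 collagens of vitreous and cartilage, 6 neural and membrane-spanning collagens and 7 others. RNA came from retinas of C57/BL6 pups at P0, the day of birth, dissociated with papain and passed over magnetic beads that carry an antibody to CD90 (Thy-1), a surface protein of retinal ganglion cells (RGCs). The bound cells are called RGC here and the cells left over non-RGC. Knockout pups (mKO) carried Math5-Cre, which is active in the lineage that gives rise to RGCs, together with floxed Ezh2. Math5 is also named Atoh7, and Ezh2 is the methyltransferase of polycomb repressive complex 2, which places the repressive mark H3K27me3. The controls were labelled wild type (WT). The study's RNA-seq methods name WT pups too, while its results speak of littermate control RGCs. Its general methods name littermates with floxed Ezh2 and no Cre as controls unless stated otherwise. Whether the WT pups were littermates is thus not settled. A difference of stock could then not be told apart from genotype. Each genotype and fraction gave 3 libraries from separate RNA extractions, 12 in all, and nothing in the sources says whether these came from separate litters, so that p-values measure the spread between these libraries. The study cites Cre labelling of only part of the RGCs and of few other retinal cells in adult Math5-Cre mice, which limits mKO as a model of cells without Ezh2.

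Collagens are secreted or membrane-anchored proteins in which 3 chains wind into a helix, and the helix needs glycine, the smallest amino acid, at the start of each triplet of residues. In fibrillar collagens the helix runs unbroken and packs side by side into fibrils of sclera, dermis, bone and vessel walls. In type IV collagen it is broken many times, and the chains form the flexible sheet of basement membranes, which in the eye line the inner surface of the retina, the lens and the vessels. Types II, IX and XI make the fibrils of the vitreous and of cartilage. Types XIII, XVII, XXIII and XXV cross the plasma membrane, and types XIX and XXV are made by neurons.

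The coding sequences below show these features, each as the first 30 codons of the longest unbroken run of triplets that open with a glycine codon (GGN), with those codons in capitals. They were read from the GENCODE M21 transcripts on GRCm38, 5′ to 3′ on the coding strand. The 6 genes were chosen as one of each group and as members on which the results turn.
Col1a1: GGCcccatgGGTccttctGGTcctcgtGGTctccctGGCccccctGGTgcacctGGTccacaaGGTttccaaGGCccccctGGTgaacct
Col2a1: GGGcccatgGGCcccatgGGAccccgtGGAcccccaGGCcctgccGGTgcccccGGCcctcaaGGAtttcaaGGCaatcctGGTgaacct
Col4a3: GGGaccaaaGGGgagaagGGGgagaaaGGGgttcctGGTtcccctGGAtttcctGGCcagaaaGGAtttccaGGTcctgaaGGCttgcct
Col6a1: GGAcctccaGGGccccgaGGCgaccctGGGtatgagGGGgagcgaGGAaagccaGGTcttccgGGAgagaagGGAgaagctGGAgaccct
Col19a1: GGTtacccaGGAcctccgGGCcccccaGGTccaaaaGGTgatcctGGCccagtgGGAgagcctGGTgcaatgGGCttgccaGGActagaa
Col8a1: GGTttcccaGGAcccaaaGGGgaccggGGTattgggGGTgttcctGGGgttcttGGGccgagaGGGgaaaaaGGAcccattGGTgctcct
These stretches start at codon 168 of Col1a1 (chr11:94939451-94939939, plus strand), codon 201 of Col2a1 (chr15:97996507-97997320, minus strand), codon 43 of Col4a3 (chr1:82641478-82643280, plus strand), codon 256 of Col6a1 (chr10:76719623-76720996, minus strand), codon 833 of Col19a1 (chr1:24296778-24301301, minus strand) and codon 355 of Col8a1 (chr16:57627994-57628083, minus strand), where the spans may include introns. The glycine codon recurs in every gene, and the length of the unbroken run differed between genes. It was 338 triplets in Col1a1, 339 in Col2a1 and between 337 and 344 in all 6 fibrillar mesenchymal genes, and Col11a1 and Col11a2, which form fibrils with Col2a1, had 338 and 338. In the 6 type IV genes it was only 39 to 66 triplets, with 23 to 27 separate runs of at least 3 triplets, although these runs hold 74.9% to 78.9% of the codons. Col8a1 and Col8a2 had runs of 60 and 59 triplets, close to the 60 of Col10a1, their short-chain relative. Among the neural and membrane-spanning genes the longest run was 28 triplets in Col28a1 to 57 in Col19a1.

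Between 7139633 and 13014004 reads fell on genes in each library. Within a group the libraries are lettered A to C from the deepest to the shallowest, since the recovered values carry no replicate number. Thy1 checked the separation, with 1422 to 1426 normalized reads in mKO RGC, 2208 to 2519 in WT RGC, 67 to 93.2 in mKO non-RGC and 1.94 to 9.38 in WT non-RGC. Ezh2 did not separate the genotypes: mKO RGC libraries had 1354 to 1476 normalized reads and WT RGC libraries 1189.9 to 1678, with 1889 to 2509 against 1683 to 2149 in non-RGC. The floxed exons encode only the SET domain near the end of the gene, so that reads over the whole gene are no check of the recombined allele. The study itself reported less Ezh2 in mKO RGCs at P0 by qPCR and Western blot. It also described weaker H3K27me3 labelling in the ganglion cell layer. From its RNA-seq it reported a change of Ezh2 in RGCs, which its discussion treats as a decrease. The RGC values given above, recovered from that RNA-seq, do not show such a decrease. WT RGC C stood apart with a summed level of 10 retinal progenitor markers of 2254 RPM (reads per 1000000 reads on genes) against 1272 to 1470 in the other 5 RGC libraries. In non-RGC that sum was 2161 to 3285 RPM, so that the RGC libraries also held progenitor RNA. The 8 photoreceptor precursor markers summed to 556 to 884 RPM in RGC and 1028 to 1441 in non-RGC. The 7 microglial markers were higher in RGC, at 117 to 274 against 2.61 to 22.7. The 12 RGC markers summed to 2059 to 2766 and 513 to 814. RGC thus names an enriched fraction, not pure RGCs. Across the 12262 genes whose mean reached 50 in RGC, Spearman's rho between the log2 fold change and the GC content of a gene's exons was -0.710, and across 11713 genes in non-RGC it was -0.511, so that genes of high GC content were lower in mKO on the whole. The collagens have 45.9% to 62.9% GC, with a median of 55.1%.

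Levels were compared between genes per length, as RPKM (RPM per kilobase of exon). Col2a1, the main collagen of vitreous and cartilage, had the highest mean level over the 12 libraries (36), followed by Col6a1, a chain of the type VI microfibril (33), and by Col9a1, Col9a2 and Col9a3, whose chains coat type II fibrils (27.4, 24.1 and 22.3). Col23a1, a membrane-spanning collagen, had 20.6, and the basement membrane chains Col4a2 and Col4a1 had 16.8 and 16.1. In RGC alone the order was Col6a1 (32.1), Col9a2 (26.8) and Col2a1 (24.3), and Col2a1 led through non-RGC (47.8). At the low end lay Col6a5 (0.0565), Col13a1 (0.108) and Col27a1 (0.134). The ranges of neighbouring genes in this order overlapped between libraries, as for Col6a1 (27.3 to 43.8 in RGC) and Col2a1 (16.9 to 41.3 in RGC).

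**Figure D1:**
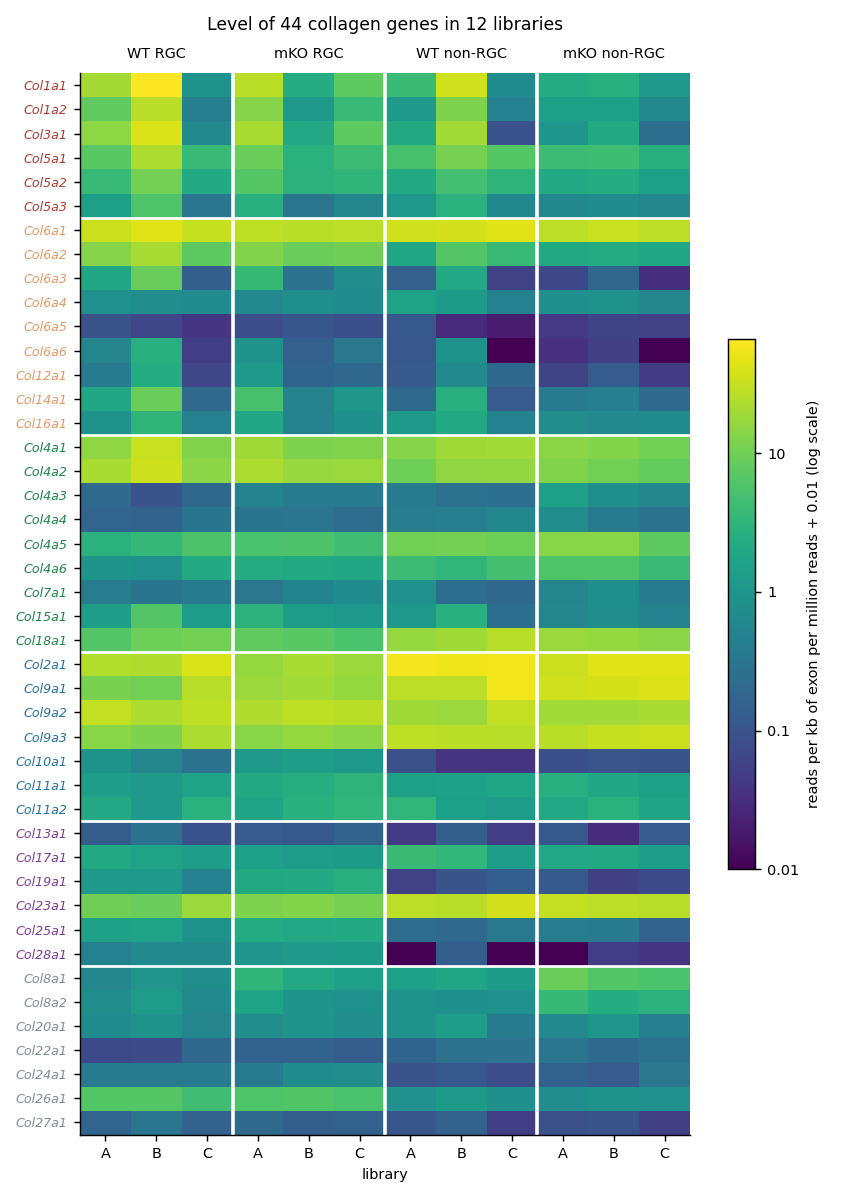
Level of each of the 44 collagen genes (rows, symbols coloured by group in the order fibrillar mesenchymal, type VI and fibril-associated, basement membrane, vitreous and cartilage, neural and membrane-spanning, other) in the 12 libraries (columns A to C within each genotype and fraction), as RPKM + 0.01 on a log colour scale. The fibrillar rows change from library to library within a genotype, while the vitreous rows and Col23a1 keep a similar colour across a fraction.

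In RGC, 42 of the 44 genes reached a mean of 10 normalized reads in one genotype or both and were tested, leaving out Col13a1 and Col6a5. At a Benjamini-Hochberg adjusted p under 0.05, which is what called means here, 5 collagens were higher in mKO than in WT (Col8a1, Col4a3, Col19a1, Col28a1 and Col11a1) and 2 were lower (Col2a1 and Col6a1). Of all 16085 genes tested, 16.3% were called higher and 21.2% lower, and the members' shares were below these backgrounds in both directions. In non-RGC, 39 genes were tested, leaving out Col10a1, Col19a1 and Col28a1 as well, and 3 were called higher (Col8a1, Col8a2 and Col4a3) and 3 lower (Col2a1, Col5a1 and Col6a1). Here 4.18% of 15326 genes were called higher and 6.43% lower. Scaling each library by its total reads in place of the authors' size factors moved the median of all genes from -0.0024 to 0.12 (log2) in RGC and from -0.026 to 0.14 in non-RGC, and the calls over all genes to 23.9% higher and 13.9% lower in RGC and to 8.69% and 2.92% in non-RGC. On that scale 6 collagens were called higher and 1 lower in RGC, and 3 and 1 in non-RGC. Single libraries also decided many calls. Without WT RGC C, 11 members were called higher and 6 lower, beside 23.2% and 27.7% of all genes, and without any one mKO RGC library 2 to 4 were called higher and 0 lower, beside 8.92% to 9.44% and 14.3% to 15.6% of all genes. In non-RGC, 7 were called lower without WT A (3.08% of all genes), 6 without WT C (5.81%), 1 without mKO C (7.39%), 0 without mKO B (0.6%) and 0 without WT B (1.42%). In a bulk fraction, fewer cells of a type and less RNA per cell cannot be told apart.

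**Figure D2:**
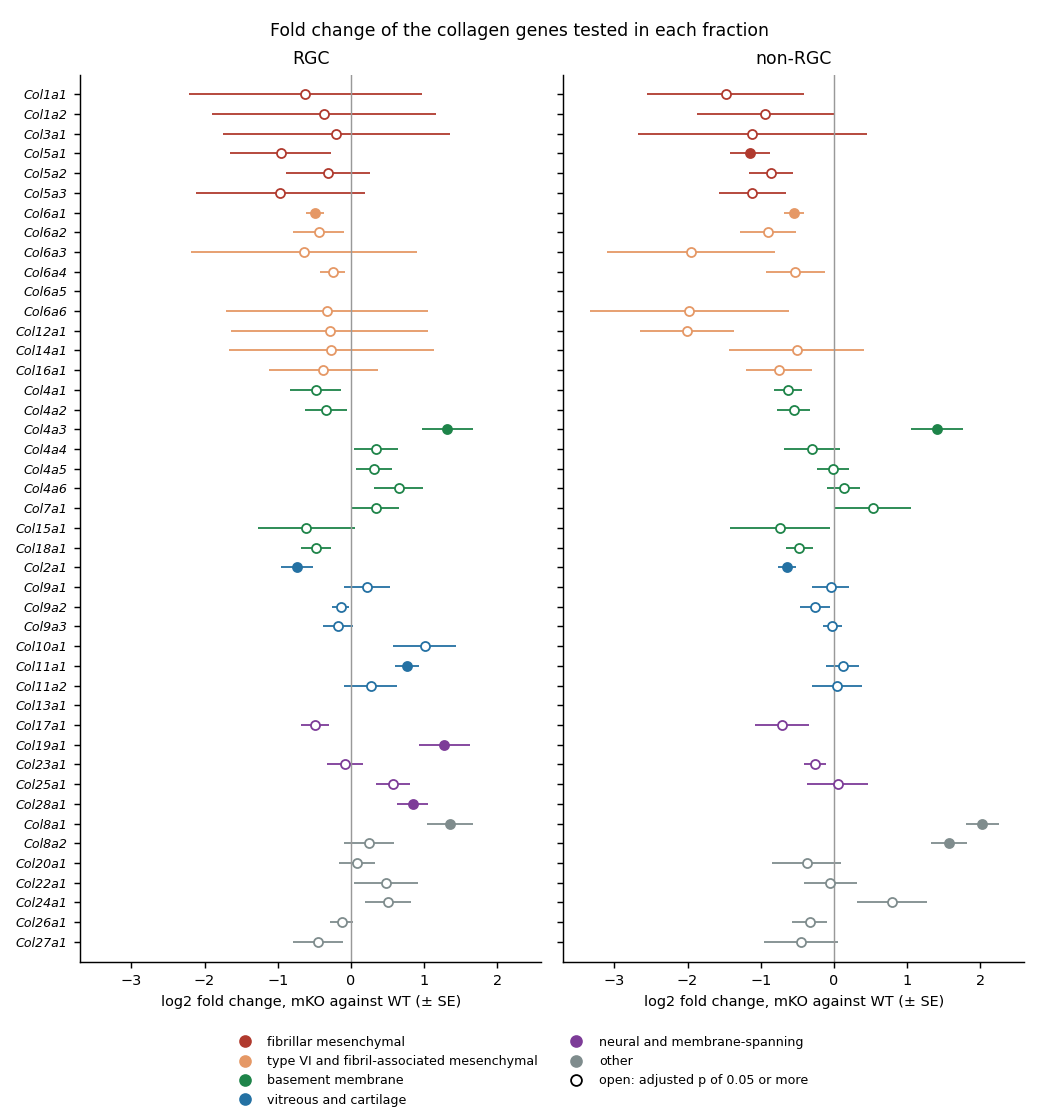
Log2 fold change of mKO against WT (horizontal axis, bars are ± SE, 3 libraries against 3) of the 42 collagen genes tested in RGC (left) and the 39 tested in non-RGC (right), coloured by group. Filled points passed an adjusted p of 0.05: Col8a1 and Col4a3 lie to the right in both panels and Col2a1 and Col6a1 to the left. The longest bars of the RGC panel are those of Col1a1, Col3a1, Col6a3 and Col1a2.

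Col8a1 rose in both fractions. It encodes a chain of type VIII collagen, a short-chain network collagen known from the membrane beneath the corneal endothelium and from vessel walls. In non-RGC its 3 mKO libraries (A to C) had 719, 482 and 436 normalized reads and its WT libraries 129, 155 and 111. Every mKO library was above every WT library, and the fold was 4.07 (log2 fold change 2.02 ± 0.23 SE, adjusted p = 0.0048). In RGC the values were 287, 182 and 135 in mKO and 56.8, 97.7 and 73.5 in WT, again without overlap and with a fold of 2.56 (log2 fold change 1.36 ± 0.31 SE, adjusted p = 0.0144). The call held without any single library in either fraction. With the trends in GC content and in reads per base of exon removed from each library, the log2 fold change in RGC was 1.06 with an adjusted p of 0.089.

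Col8a2, which encodes the partner chain of Col8a1, rose in non-RGC. The mKO non-RGC libraries had 164, 105 and 129.9 normalized reads and the WT libraries 45.1, 41.6 and 43.8, a fold of 2.96 (log2 fold change 1.57 ± 0.25 SE, adjusted p = 0.0086). It was called in non-RGC under all alternatives and without each library in turn. In RGC the genotypes overlapped, with 85.5, 48.9 and 45.2 in mKO and 42.6, 70.6 and 37.3 in WT (log2 fold change 0.25 ± 0.34 SE, adjusted p = 0.598). Per length, Col8a1 stood at 1.92 to 2.64 times Col8a2 in mKO non-RGC and at 1.45 to 2.13 times in WT non-RGC. Genes with a GC content within 2 percentage points of Col8a2 had a median log2 fold change of -0.34 in non-RGC. For genes this close to Col8a1 the median was 0.15 in RGC and 0.062 in non-RGC.

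Pigment cell genes moved with the type VIII genes. Of 8 listed markers of the retinal pigment epithelium and ciliary margin, 7 were tested in non-RGC and 6 were called higher in mKO, among them Tyr, the first enzyme of melanin synthesis (log2 fold change 2.62 ± 0.38 SE, adjusted p = 0.00741), Dct (1.85) and Pmel (1.59). In RGC, 3 of 6 tested were called higher. Of all genes, 4.18% were called higher in non-RGC and 16.3% in RGC. The summed level of the list was 182 to 209.6 RPM in mKO non-RGC against 37.4 to 70.1 in WT non-RGC, and 46.6 to 72.5 in mKO RGC against 22.3 to 32.5 in WT RGC. Rpe65, a defining gene of the mature pigment epithelium, had at most 2 reads in any library. Library by library, Col8a1 and the summed markers had the same order in mKO RGC (A, B, C) and in WT non-RGC (B, A, C), and different orders in WT RGC and mKO non-RGC. The part of these cells in the rise of Col8a1 and Col8a2 was not tested.

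The promoters of the type VIII pair are shown because these genes had the calls that held under the most alternatives, and that of Col3a1 because it is a mesenchymal gene with no CG dinucleotide there. They are the 250 bases before the annotated start in RefSeq on GRCm38.p6, 5′ to 3′ on the gene's strand, with CG dinucleotides in capitals.
Col8a1: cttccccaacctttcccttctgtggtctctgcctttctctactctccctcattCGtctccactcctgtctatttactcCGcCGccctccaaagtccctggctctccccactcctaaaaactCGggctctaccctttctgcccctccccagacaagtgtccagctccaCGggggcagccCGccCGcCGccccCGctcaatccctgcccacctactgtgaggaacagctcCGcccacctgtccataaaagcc
Col8a2: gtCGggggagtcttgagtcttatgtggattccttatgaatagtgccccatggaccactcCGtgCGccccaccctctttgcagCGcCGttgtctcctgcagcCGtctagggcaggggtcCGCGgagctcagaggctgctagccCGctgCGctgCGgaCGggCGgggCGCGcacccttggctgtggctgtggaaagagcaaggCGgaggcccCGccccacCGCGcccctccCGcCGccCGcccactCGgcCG
Col3a1: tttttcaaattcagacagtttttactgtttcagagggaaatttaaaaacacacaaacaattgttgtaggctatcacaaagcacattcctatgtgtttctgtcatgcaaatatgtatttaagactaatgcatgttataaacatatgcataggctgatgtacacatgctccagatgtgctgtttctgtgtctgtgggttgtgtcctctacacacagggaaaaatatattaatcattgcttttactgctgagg
They lie at chr16:57754738-57754987 (minus strand), chr4:126286544-126286793 (plus strand) and chr1:45311288-45311537 (plus strand), and hold 10, 24 and 0 CG dinucleotides against a median of 6 over 32817 RefSeq promoters. RefSeq gave a promoter for 35 of the 44 genes, 38 in all. On either strand, TATAAA was found in 5 of the 38 (12.4% of all promoters), CCAAT in 13 (33.8% of all), CATGTG in 3 (12.3% of all) and CACGTG in 0 (6.02% of all), with no overlap possible between CATGTG and CACGTG. Neither type VIII promoter held any of these motifs, and Col3a1 held TATAAA and CATGTG. Promoters richest in CG were those of Col4a1 (31), Col5a1 (28) and Col4a2 (26).

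Among the basement membrane genes, Col4a3 was called, higher in mKO in both fractions. It encodes one of the type IV chains that form the network of the kidney filter, and is a low gene in the retina. The RGC libraries had 57.6, 40.6 and 43.3 normalized reads in mKO and 24.3, 10.9 and 22.2 in WT (log2 fold change 1.32 ± 0.34 SE, adjusted p = 0.0225). The non-RGC libraries had 140.2, 77.7 and 57.9 in mKO and 40.6, 28.1 and 28.2 in WT (log2 fold change 1.41 ± 0.35 SE, adjusted p = 0.0356). The genotypes did not overlap in either fraction. The RGC call was lost without any one of the 3 mKO libraries (adjusted p = 0.0579 to 0.0865), and the non-RGC call without mKO A or B or WT B or C (0.0646 to 0.12). With the trends in GC content and reads per base removed it was lost in RGC (0.119), and in non-RGC it was lost once the GC trend was taken out (0.0706) and once both were (0.0538), at log2 fold changes of 1.15, 1.49 and 1.43. Of its exon bases 5.65% overlap C430014B12Rik on the opposite strand, and the sources do not say whether counting used strand, so that reads of the 2 genes cannot be told apart there.

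The type IV genes lie head to head in pairs. Annotated starts are 21 bases apart for Col4a1 and Col4a2 on chromosome 8, 72 for Col4a3 and Col4a4 on chromosome 1 and 1309 for Col4a5 and Col4a6 on chromosome X. Col4a4, the neighbour of Col4a3, had 35.8, 37.8 and 27.3 normalized reads in mKO RGC and 22.3, 20.6 and 38.5 in WT RGC, and 78.6, 38.4 and 29.7 and 46, 49.4 and 74 in non-RGC, with overlap in both. The level of Col4a3 per length was 1.9 to 2.16 times that of Col4a4 in mKO non-RGC and 0.405 to 0.939 times in WT non-RGC, without overlap. In RGC it was 1.14 to 1.71 times in mKO and 0.56 to 1.16 times in WT, with a small overlap.

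Col4a1 and Col4a2, the chains of every basement membrane, kept a ratio that differed between fractions more than between genotypes. Col4a1 stood at 0.688 to 0.839 times Col4a2 per length in mKO RGC and 0.692 to 0.931 times in WT RGC. In non-RGC the ratio was 1.16 to 1.25 in mKO and 1.2 to 1.39 in WT. Col4a1 in non-RGC had 1079.6, 965 and 765 normalized reads in mKO and 1102, 1602 and 1693 in WT, where the groups did not overlap but the test was not passed (log2 fold change -0.64 ± 0.19 SE, adjusted p = 0.0613). Col4a2 had a log2 fold change of -0.55 ± 0.23 SE there (adjusted p = 0.141). Without WT non-RGC A both were called lower, with log2 fold changes of -0.83 and -0.80. In RGC, Col4a1 had 1609, 1028 and 1113 in mKO and 1435, 2983 and 1169 in WT, with WT B far above the rest.

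Col4a5 and Col4a6 were not called. Col4a5 had 423, 436 and 346 normalized reads in mKO RGC and 232, 304 and 469 in WT RGC (log2 fold change 0.32 ± 0.25 SE, adjusted p = 0.348), and Col4a6 had 207, 194 and 177 and 95.3, 86.8 and 217 (log2 fold change 0.65 ± 0.33 SE, adjusted p = 0.165). In both, WT C was the highest RGC library, and without it both were called higher, with log2 fold changes of 0.59 and 1.07. Col18a1, the source of endostatin, had 1228, 1172 and 1041 in mKO non-RGC and 1288, 1466 and 2125 in WT non-RGC, all mKO libraries below all WT libraries, and did not pass the test (log2 fold change -0.47 ± 0.18 SE, adjusted p = 0.117). In RGC it had 622, 569 and 455 in mKO and 553, 859 and 918 in WT, and was called lower only without WT RGC A. Col15a1, a relative of Col18a1 in vessel and muscle basement membranes, was also highest in WT B, with 107, 517 and 103 in WT RGC and 209, 94 and 80.9 in mKO RGC, and in non-RGC it was called lower without WT C (-1.64). Col7a1, the anchoring fibril collagen, had 37.5 to 86.6 in mKO RGC and 39.1 to 51.7 in WT RGC. The median log2 fold change of the 9 basement membrane genes was 0.32 in RGC and -0.30 in non-RGC, beside -0.0024 and -0.026 over all genes.

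Col2a1 fell in both fractions. The RGC libraries had 1777, 2332 and 1907 normalized reads in mKO and 2780.2, 2767 and 4722 in WT (log2 fold change -0.73 ± 0.22 SE, adjusted p = 0.0345). The non-RGC libraries had 3082, 3942 and 4049 in mKO and 5799.7, 5501 and 5929 in WT (log2 fold change -0.65 ± 0.12 SE, adjusted p = 0.0156). The genotypes did not overlap, and WT RGC C, the library with the highest progenitor markers, also had the most Col2a1 of its fraction. Genes of like GC content (Col2a1 has 62.2%) had a median log2 fold change of -0.57 in RGC and -0.46 in non-RGC. With the GC trend removed, Col2a1 stood at -0.13 (adjusted p = 0.708) and -0.14 (0.422). With both trends removed its adjusted p was 0.635 and 0.318, and scaled by total reads the RGC call was lost (0.0629). Leaving out any mKO RGC library, or mKO B or WT B in non-RGC, also ended the call (adjusted p = 0.0513 to 0.112).

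Col11a1, whose chain sits in the core of type II fibrils, rose in RGC, from 216, 190.0 and 249 normalized reads in WT to 315, 350.4 and 457 in mKO (log2 fold change 0.77 ± 0.17 SE, adjusted p = 0.0113). The genotypes did not overlap and the call held without any single library. In non-RGC it had 327, 237 and 191 in mKO and 210.2, 214 and 258 in WT, which overlapped (log2 fold change 0.12 ± 0.22 SE). Its GC content of 48% is among the lowest of the collagens, and genes like it in GC content had a median log2 fold change of 0.10 in RGC. With the trends in GC content and reads per base removed its adjusted p was 0.167.

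The type IX genes, which are made with type II collagen in the vitreous, were not called. Col9a1 had 1031, 1155 and 995 normalized reads in mKO RGC and 714, 652 and 1613 in WT RGC, where WT C was the highest library, and without it Col9a1 was called higher with a log2 fold change of 0.63. Col9a2 had a log2 fold change of -0.14 ± 0.12 SE in RGC and a GC content of 62.7%. With the GC trend removed its value turned to 0.48 and was called higher (adjusted p = 0.0242). Col9a3, of which 6.07% of the exon bases overlap Tcfl5 on the opposite strand, had -0.18 ± 0.21 SE. Col10a1 had 40.1, 47.9 and 39.5 in mKO RGC and 37.5, 21.7 and 10.5 in WT RGC, without overlap, and did not pass the test (log2 fold change 1.01 ± 0.43 SE, adjusted p = 0.108). It was called higher without WT RGC A, with a log2 fold change of 1.42. Col11a2 lay between 93 and 281 reads in RGC, with overlap between genotypes. The median of the 7 genes of vitreous and cartilage was 0.22 in RGC, and that of the 6 tested in non-RGC -0.034.

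**Figure D3:**
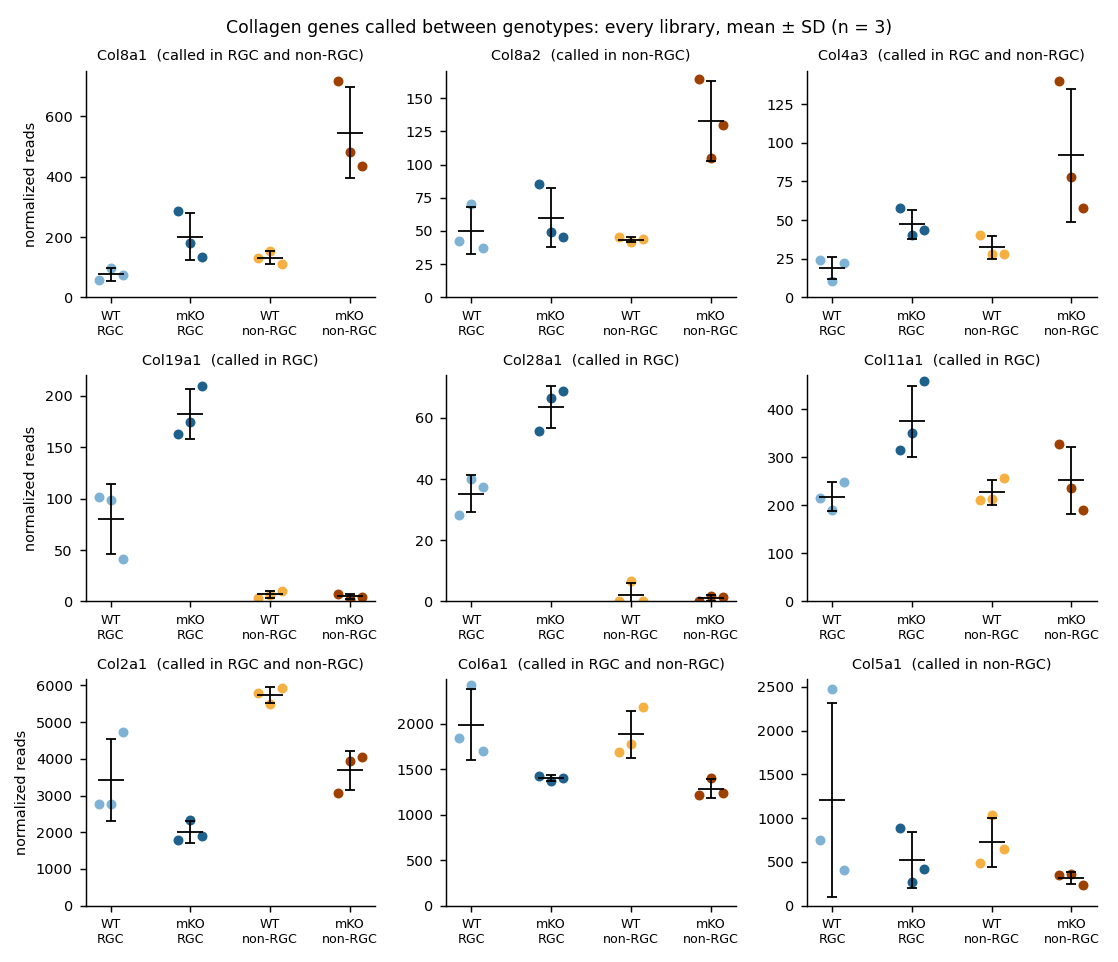
Normalized reads (vertical axes from 0, scales differ between panels) of the 9 collagen genes called in either fraction, with every library as a point and the mean ± SD of 3 libraries in black, for WT and mKO in RGC and non-RGC. The mKO points of Col8a1 and Col4a3 lie above all WT points in both fractions, those of Col2a1 and Col6a1 below, and Col19a1 and Col28a1 lie near 0 in non-RGC.

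Of the neural and membrane-spanning collagens, Col19a1 and Col28a1 rose in mKO RGC. Col19a1, a collagen made by neurons and linked to synapse formation, had 162, 174 and 209.9 normalized reads in mKO RGC and 101, 98.8 and 40.8 in WT RGC (log2 fold change 1.27 ± 0.35 SE, adjusted p = 0.0271). The lowest value was WT C, and leaving out any one mKO library ended the call (adjusted p = 0.0661 to 0.0961, log2 fold change 1.17 to 1.35), as did removing the GC trend (0.0675) or both trends (0.124). Col28a1, described around peripheral nerve, had 55.8, 66.4 and 68.7 in mKO RGC and 28.4, 40.2 and 37.3 in WT RGC (log2 fold change 0.84 ± 0.21 SE, adjusted p = 0.02). Its call was lost without mKO B, mKO C or WT A (adjusted p = 0.0561 to 0.0786), with both trends removed (0.12) and in a fit over all 4 groups (0.392).

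Col25a1, a membrane-spanning collagen of neurons known for its part in motor innervation, had 331, 299 and 333 normalized reads in mKO RGC and 253, 269 and 146 in WT RGC. All mKO libraries were above all WT libraries, and the adjusted p missed the threshold (log2 fold change 0.57 ± 0.23 SE, adjusted p = 0.0894). It was called higher when libraries were scaled by total reads, and also without WT C, where the log2 fold change was smaller, at 0.29. Markers of RGCs went the other way in these libraries: 10 of 12 were called lower in mKO RGC, beside 21.2% of all genes. Their summed level was 2059 to 2130.3 RPM in mKO and 2619 to 2766 in WT. In non-RGC, 8 of the 12 were called higher in mKO (608 to 814 against 513 to 539 RPM), beside 4.18% of all genes. There Col25a1 had 51.6, 48.9 and 19.8 normalized reads in mKO and 31.6, 28.1 and 51.1 in WT. The part of these cells in the collagen values was not tested.

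Col23a1, the highest membrane-spanning collagen, had 800.1, 862 and 727 normalized reads in mKO RGC and 702, 660.0 and 1279 in WT RGC, so that WT C lay apart from the other 5. Its log2 fold change was -0.08 ± 0.24 SE, and without WT C it turned to 0.22 and was called higher. In non-RGC it had 1701, 1593 and 1484 and 1756, 1639 and 2406 (log2 fold change -0.26 ± 0.15 SE, adjusted p = 0.284). Col17a1, a collagen of the epithelial hemidesmosome, had 98.6, 87.6 and 83.8 in mKO RGC and 159, 123 and 104 in WT RGC, all mKO below all WT (log2 fold change -0.49 ± 0.19 SE, adjusted p = 0.0811), and was called lower without WT C. Col13a1 had 4 to 14 reads in RGC and was not tested.

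The fibrillar mesenchymal collagens differed between libraries of the same genotype far more than between genotypes. Col1a1, a chain of the main fibrillar collagen of skin, bone and sclera, had 1701, 5584 and 74.7 normalized reads in WT RGC and 1993, 172 and 570.3 in mKO RGC. Among libraries A, B and C of WT non-RGC it had 289, 2575 and 54.2, and among those of mKO non-RGC 146, 166 and 76.3. The genotypes overlapped in both fractions, with a log2 fold change of -0.62 ± 1.59 SE in RGC and -1.48 ± 1.07 SE in non-RGC. Col3a1, which joins type I in the fibrils of soft tissue, had 1846, 5085 and 77 in WT RGC, 2403, 229.6 and 875 in mKO RGC, 228, 2148 and 9.38 in WT non-RGC and 99.4, 211 and 22.6 in mKO non-RGC. Both were highest in WT B of either fraction. The letters order libraries by depth within a group, and WT RGC B and WT non-RGC B are not known to share an animal.

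The rest of the group varied in the same order. In RGC, all 6 fibrillar mesenchymal genes and 7 of the 8 tested type VI and fibril-associated genes had the libraries in the order of Col1a1 (B, A, C in WT and A, C, B in mKO), the exception being Col6a4. Of all genes tested 4.78% had this order, and WT B was the highest of the 6 RGC libraries for 12.9% of genes. The order was read from Col1a1 itself and is a description. By contrast it was seen in 0 of the 7 vitreous genes, 0 of the 5 tested neural genes, 2 of the 9 basement membrane genes, Col4a1 and Col4a2, and 1 of the 7 other genes, Col27a1. The within-genotype SD on the log2 scale had a median of 2.18 over the fibrillar genes in RGC and 1.68 over the type VI group, against 0.46 over basement membrane genes, 0.35 over neural genes, 0.34 over vitreous genes and 0.154 over all 16085 genes. In non-RGC the medians were 1.26 for fibrillar genes, 0.31 for vitreous genes and 0.237 over all genes.

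**Figure D4:**
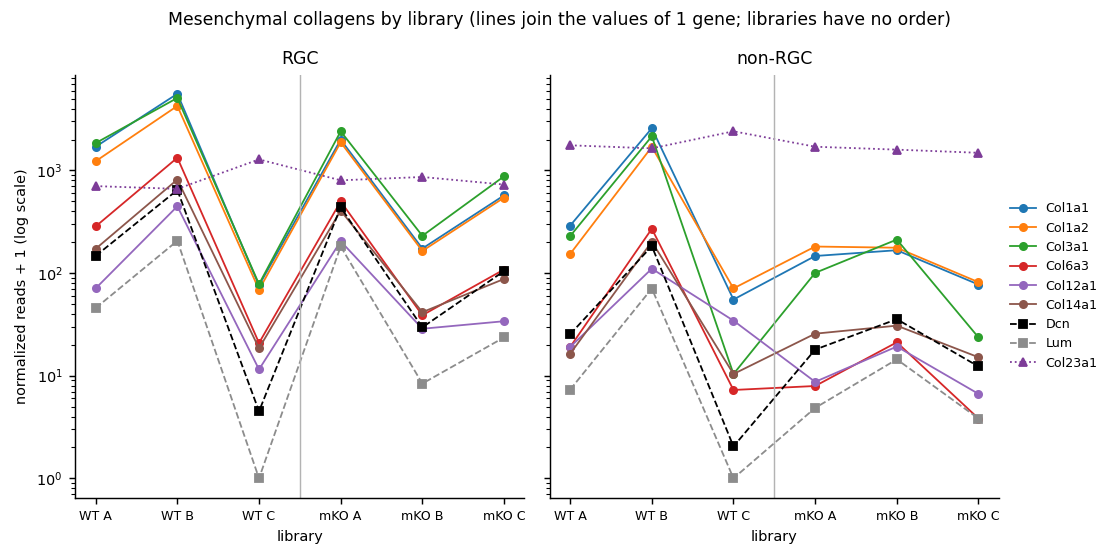
Normalized reads + 1 (log axis) of 6 mesenchymal collagens (circles), the proteoglycan genes Dcn and Lum (squares) and, for contrast, the membrane-spanning collagen Col23a1 (triangles) in each library of RGC (left) and non-RGC (right). The mesenchymal collagens and Dcn and Lum peak together in WT B of both fractions and in mKO A of RGC, while Col23a1 stays between 660.0 and 2406 throughout.

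In RGC, many genes of mesenchyme, pericytes and matrix moved with them. The summed level of the 6 fibrillar genes was 489, 1514 and 73.5 RPM in WT RGC A, B and C and 711, 103 and 240.3 in mKO RGC. The 12 listed mesenchyme markers summed to 21.2, 61.5 and 18.3 and 38.6, 15.8 and 18.5 in the same libraries. The 9 listed pericyte and smooth muscle markers summed to 64.7, 151.7 and 43.3 and 110, 31.2 and 44.1. All 9 were highest in WT B, and 4 had the order of Col1a1. The marker sums moved far less in non-RGC. In WT non-RGC A, B and C the fibrillar genes summed to 133, 739 and 101 RPM. The mesenchyme markers there summed to 42.7, 53 and 39.4, and the pericyte and smooth muscle markers to 49.3, 64.9 and 42.5. Both marker sums were still highest in WT B among these libraries. Dcn, a small proteoglycan that binds type I fibrils, had 146, 644 and 3.5 normalized reads in WT RGC and 436, 28.6 and 104 in mKO RGC. Of 13 fibril-binding proteoglycan and matrix genes tested in RGC, 9 had the order of Col1a1, and of 8 mesenchyme markers tested 7 did, with 0 of that list called by limma in either fraction (0 and 2 had an unadjusted p under 0.05, and voom called 0 and 1). Gfap, a gene of astrocytes, was high in 1 of these libraries, with 699, 35 and 59.3 normalized reads in mKO RGC and 45.6, 18.5 and 47.8 in WT RGC. Its lowest WT RGC library was thus WT B. Of the 8 listed astrocyte and Müller glia markers, 1 had the order of Col1a1 and 0 were highest in WT B. The part of these cells in the collagen values was not tested.

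Over all libraries the fibrillar median log2 fold change was -0.49 in RGC and -1.12 in non-RGC, and 6 of 6 genes were lower in mKO in each, with 0 called in RGC (0 at an unadjusted p under 0.05, and 0 by voom) and 1 in non-RGC. Leaving out single libraries carried the RGC median from -2.003 (without WT C) to 0.50 (without WT B), and to 0.076 without mKO B, so that its sign rested on single libraries. In non-RGC it stayed below 0, from -1.75 (without WT C) to -0.29 (without WT B). The type VI and fibril-associated median went from -1.30 to 0.56 in RGC and from -1.32 to -0.42 in non-RGC without the same libraries, against -0.35 and -0.83 with all.

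Col5a1, which sets fibril diameter, was the fibrillar gene called, lower in mKO non-RGC. It had 353, 362 and 232 normalized reads in mKO non-RGC and 484, 1035 and 649 in WT non-RGC, without overlap (log2 fold change -1.15 ± 0.28 SE, adjusted p = 0.0322). The call was lost without mKO B or C or WT B or C (adjusted p = 0.0576 to 0.094), with the GC trend removed (0.152) or both trends removed (0.119), when scaled by total reads (0.0551) and in a fit over all 4 groups (0.149). Col5a2, its partner, had 203, 222 and 139.8 and 222, 511 and 338 there, where the highest mKO library lay less than 1 normalized read below the lowest WT library (log2 fold change -0.86 ± 0.30 SE, adjusted p = 0.0908), and was called lower without WT A. Col5a3 had 40.8, 47 and 39.5 and 82.1, 207 and 46.9, and was called lower without WT C. In RGC Col5a1 had 886, 273 and 415 in mKO and 746, 2469.7 and 403 in WT, which overlapped (log2 fold change -0.96 ± 0.69 SE, adjusted p = 0.309).

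Col6a1 fell in both fractions, with the smallest log2 fold change of the called members in each. The RGC libraries had 1430.1, 1371 and 1408 normalized reads in mKO and 1843, 2432 and 1703 in WT (log2 fold change -0.49 ± 0.13 SE, adjusted p = 0.0215). The non-RGC libraries had 1216, 1404 and 1238 in mKO and 1693, 1781 and 2183 in WT (log2 fold change -0.55 ± 0.13 SE, adjusted p = 0.0329). The genotypes did not overlap. The call ended without any one of the 3 mKO libraries in RGC (adjusted p = 0.0627 to 0.0744), without any 1 of the 6 libraries in non-RGC (0.0521 to 0.105), and with the GC trend removed (0.586 in RGC and 0.269 in non-RGC) or both trends removed (0.87 and 0.318). It also ended on scaling alone, by the upper quartile in RGC (0.0501) and by total reads in non-RGC (0.076). Genes of like GC content had a median log2 fold change of -0.33 and -0.24.

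Its partners in the type VI heterotrimer were not called. Col6a2 had 1177, 871 and 959.9 normalized reads in mKO RGC and 1406, 2239.6 and 778 in WT RGC, and 171, 187 and 164 and 161, 586 and 364 in non-RGC, with overlap in both. It was called lower without WT C in RGC and without WT A in non-RGC. Col6a3, the third chain, had 498, 37.8 and 107 in mKO RGC and 284, 1329 and 19.8 in WT RGC, and 6.94, 20.1 and 2.82 and 18, 269 and 6.26 in non-RGC. Between WT RGC B and C, Col6a1 went from 2432 to 1703 while Col6a3 went from 1329 to 19.8. Col12a1, a collagen on the surface of type I fibrils, had 7.71, 18.2 and 5.65 and 18, 109 and 33.4 in non-RGC (log2 fold change -2.01 ± 0.64 SE, adjusted p = 0.0727), and was called lower without WT A.

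The remaining mesenchymal genes followed Col1a1 or were low. Col1a2, the partner chain of Col1a1, ranged from 67.7 to 4248 normalized reads in WT RGC and from 163 to 1879 in mKO RGC, and Col14a1, a fibril-associated collagen, from 17.5 to 814 and 40.6 to 405. Col16a1 ranged from 39.7 to 276 and 39.6 to 144, and Col6a6, an alternative type VI chain, from 4.67 to 293 and 14.8 to 93.4. Col6a4 was steadier, from 73.5 to 92.2 in WT and 61.1 to 77.5 in mKO, and Col6a5, with 3 to 11 reads in RGC and 1 to 12 in non-RGC, was not tested. In non-RGC, Col6a4 and Col16a1 were called lower without WT C, at log2 fold changes of -1.02 and -1.31.

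No difference of the mKO effect between RGC and non-RGC passed the test for a collagen. Of 39 members tested in a limma model over 12 libraries 0 were called, and voom also called 0, 2 had an unadjusted p under 0.05, and 0.107% of 14894 genes were called. On the log2 scale, the mKO effect in RGC minus that in non-RGC was -1.32 ± 0.42 SE for Col8a2, called in non-RGC (adjusted p = 0.417, the smallest among the members), and 0.65 ± 0.29 SE for Col11a1, called in RGC (adjusted p = 0.493). Genes called in one fraction and not in the other were therefore not shown to differ between them.

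Fractions themselves were set side by side on RPM, with no test, because the 2 tables were normalized separately and the fractions differ in cell types by design. All 6 RGC libraries lay above all 6 non-RGC libraries for 7 of 42 collagens, against 18.0% of 16517 genes, and below them for 6, against 15.2%. The 7 above were Col6a2, Col10a1, Col19a1, Col24a1, Col25a1, Col26a1 and Col28a1. Of these, Col10a1, Col19a1 and Col28a1 passed the filter on low values only through RGC, where they are high, so that the count supports nothing about the members. Those below were Col4a5, Col4a6 and Col18a1 of the basement membrane, Col9a1 and Col9a3 of the vitreous, and Col23a1. No fibrillar mesenchymal gene separated the fractions.

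Col19a1 and Col28a1 had few reads outside the RGC libraries. Col19a1 had 35 to 223 reads in the RGC libraries and 3 to 10 in the non-RGC libraries, a ratio of 20.01 between the mean levels. Col28a1 had 28 to 73 reads against 0 to 7, and Col10a1 had 9 to 52 against 1 to 3. Thy1, the gene of the antigen, was 2208 to 2519 against 1.94 to 9.38 normalized reads in WT. Col26a1 had 37.1 to 54.4 RPM in RGC and 6.16 to 9.53 in non-RGC, and Col25a1 11.8 to 29.1 and 1.96 to 5.22. On the other side, Col23a1 had 147 to 208 in non-RGC and 52.1 to 103 in RGC, and Col18a1 103 to 184 and 39.1 to 74.2. Col2a1 was higher in the mean of non-RGC by 1.97 times but overlapped through WT RGC C.

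**Figure D5:**
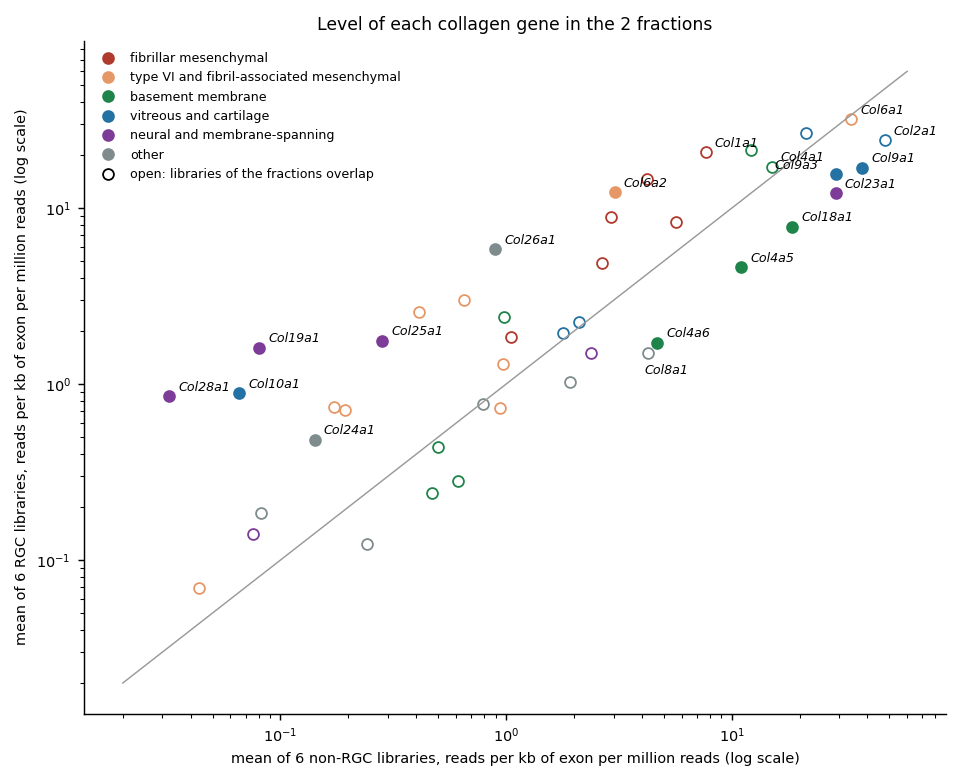
Mean level of each collagen gene over the 6 RGC libraries (vertical, log axis) against its mean over the 6 non-RGC libraries (horizontal, log axis), both in RPKM, with a line of equal level. Filled points are the 13 genes whose libraries do not overlap between fractions: Col28a1, Col19a1 and Col10a1 lie farthest above the line, and Col4a6, Col4a5, Col18a1 and Col23a1 below it.

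The machinery that makes and anchors collagens was followed in lists of genes known for these steps. Of 21 genes of procollagen modification and folding, all tested in RGC, 7 were called lower in mKO and 1 higher, beside 21.2% and 16.3% of all genes, with a median log2 fold change of -0.24. The largest falls were Ppib, a prolyl isomerase (-0.66), Colgalt1, which adds galactose to hydroxylysine (-0.57), and Serpinh1, the collagen chaperone HSP47 (-0.55), and the rise was Plod2, a lysyl hydroxylase (0.51). With the GC trend removed, 17 could be followed and 3 were called lower, beside 9.32% of all genes. In non-RGC 0 of 20 were called, 5 had an unadjusted p under 0.05 and voom called 0. Of 14 processing and cross-linking genes tested in RGC 0 were called (4 at an unadjusted p under 0.05, and 0 by voom). Of 13 in non-RGC 1 was called lower, Loxl1, a cross-linking enzyme (-1.15), beside 6.43% of all genes. With the GC trend removed, 0 of these 13 were called (1 at an unadjusted p under 0.05).

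Among 12 collagen receptors, 2 of 11 tested were called lower in RGC and 1 of 10 in non-RGC, beside 21.2% and 6.43% of all genes. Ddr1, a receptor tyrosine kinase for collagens, had 2551, 2639 and 2439 normalized reads in mKO RGC and 4098, 4192 and 5158 in WT RGC (log2 fold change -0.81 ± 0.094 SE, adjusted p = 0.00111), and 2877, 3336 and 3916 and 4993, 5295 and 5352 in non-RGC (log2 fold change -0.64 ± 0.12 SE, adjusted p = 0.0175). Its mKO libraries were below all WT libraries in each fraction. Of 15 further basement membrane genes, 3 were called lower in RGC, a share near that of all genes, and 3 in non-RGC, Agrn, the heparan sulphate proteoglycan agrin, in both (-0.49 and -0.60). Of 13 tested fibril-binding genes, 2 were called lower in each fraction. They were Prelp (-0.99) and Fbln1 (-0.60) in RGC and Fn1, fibronectin (-0.89), and Fbln2 (-0.88) in non-RGC. With the GC trend removed, limma called 0 of the receptors and 0 of the further basement membrane genes in either fraction, with 3 and 2 at an unadjusted p under 0.05 in RGC and 1 and 2 in non-RGC.

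The other 5 genes outside the named groups were not called. Col26a1, first described in reproductive tissue, had 543, 575 and 516 normalized reads in mKO RGC and 680.1, 669.8 and 459 in WT RGC (log2 fold change -0.13 ± 0.15 SE, adjusted p = 0.556), with overlap. It was called lower, with a log2 fold change of -0.31, without WT C. Col24a1 and Col27a1, whose chains resemble the fibrillar ones, had 30.5 to 65.9 against 33.4 to 36.2 and 20.3 to 29.7 against 24.5 to 51 in mKO against WT RGC. Their longest glycine runs were 216 and 217 triplets, shorter than in the 6 fibrillar mesenchymal genes. Col24a1 was called higher without mKO RGC A (log2 fold change 0.86), and Col22a1, a collagen of tissue junctions with 7 to 18 reads in RGC, without WT C (0.95). Col20a1 had 44.2 to 55.3 in mKO and 35 to 58.6 in WT RGC. The median over the 7 genes, type VIII included, was 0.25 in RGC and -0.052 in non-RGC.

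Markers of the remaining cell types were checked beside these values. In RGC limma called 6 of 10 retinal progenitor, 5 of 8 photoreceptor precursor, 3 of 7 astrocyte and Müller glia, 1 of 9 pericyte and smooth muscle and 1 of 2 cartilage markers, all lower in mKO. Of all genes, 21.2% were called lower there. With the GC trend removed, 2 progenitor, 4 photoreceptor, 2 glial, 0 pericyte and 1 cartilage markers were called lower in RGC, beside 9.32% of all genes. The member of the cartilage list called was Sox9, with 1260 to 1466 reads in mKO RGC and 1566 to 2089 in WT RGC. The other members of that list had at most 24 reads in any library, so that the call of Sox9 says nothing about cartilage. Limma called 0 of 9 endothelial, 0 of 3 lens and 0 of 7 microglial markers, of which 3 microglial markers had an unadjusted p under 0.05 and voom called 1 of them. In non-RGC it called 2 of 10 progenitor, 4 of 8 photoreceptor, 1 of 7 glial and 1 of 8 endothelial markers, all lower, beside 6.43% of all genes. It called 0 of 6 pericyte, 0 of 2 lens, 0 of 6 microglial and 0 of 2 cartilage markers there, with 1 pericyte and 1 cartilage marker at an unadjusted p under 0.05 and 0 by voom. With the GC trend removed in non-RGC, 1 progenitor and 1 photoreceptor marker were called lower, beside 0.455% of all genes. In that setting 0 glial and 0 endothelial markers were called, with 3 and 4 at an unadjusted p under 0.05. The defining cartilage gene Acan had at most 12 reads in any library and Matn1 at most 1, while Col2a1 had at least 2026. The part of these cells in the collagen values was not tested.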

How the data were processed

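RNA-seq reads of 12 libraries were aligned to mm10 by the authors with STAR 2.3.1z4 and counted per gene with featureCounts, per the labels and processing notes; whether counting used strand is not given in the sources used here. The deposited signal values are the authors' group means of read counts divided by size factors. Columns of fold changes and p-values of the authors' own comparisons were not used. The digits of each mean gave back the whole reads of its 3 libraries for 100% of the genes with reads, with 1 combination each (0 of 1000 genes per group with shifted steps).

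Each table was tested apart with limma 3.58.1 (mean-variance trend, two-sided) on log2(reads / size factor + 1), keeping genes whose mean reached 10 in one genotype or both, with Benjamini-Hochberg adjustment over all of them. Fold changes on this scale understate those of low genes. The difference between fractions was an interaction over 12 libraries. Voom on the recovered reads called 2662 genes higher and 3417 lower in RGC and 705 and 1019 in non-RGC. On simulated data, 180 of 200 genes changed by 1 on the log2 scale were found among 15647 genes in RGC and 182 of 200 among 14914 in non-RGC, with 5 and 9 false calls. The simulation gave every gene the same dispersion, so that these rates do not carry over to the collagens. Their median within-genotype SD (log2) was 0.48 in RGC and 0.56 in non-RGC, against 0.154 and 0.237 over all genes. Exact permutation of 3 against 3 libraries cannot go below p = 0.1 and was not run.

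Exon lengths, GC content and coding sequences came from GENCODE M21 and promoters from RefSeq, and 94.4% of the 16517 genes whose mean reached 10 in any group were matched, 7 symbols of the lists by older names. The members, groups and lists were chosen with earlier results of these data known. Named were called members, the 2 highest genes of each group, the type IV pairs and members whose call turned on 1 library, with the rest given by ranges. Alternatives changed the pseudocount (0.5), the filter (none, or a minimum mean of 50), the scaling, the trends in base composition and reads per base, the tool, the fit and the threshold, or left out each library. One further marker list is not reported here.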

Additional observations from a re-analysis of the deposited data

How the results depend on the processing

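Over the counts of called members, 62 values under the alternatives stayed within 1.5 times the reported count and 22 did not. Over the medians of the groups 141 stayed within the spread between libraries and 15 did not. For single genes, 1042 kept their direction and side of the threshold or moved by less than the spread between libraries, 82 moved further without a call, 55 lost a call, 23 gained one and 2 reversed. In RGC the count of members called higher (5) was 0 with the trends in GC content and reads per base removed, where 1.94% of all genes were called higher, and ran from 2 to 11 with single libraries left out. The count called lower (2) was 1 with total reads, with the upper quartile and with an unadjusted p under 0.05 and a fold of at least 1.5, 0 without the GC trend (9.32% of all genes) and 0 without both trends (4.43%), and 0 to 6 with single libraries left out. In non-RGC the count called lower (3) was 1 with total reads, 0 without the GC trend (0.455% of all genes) and 0 without both trends (0.717%), 7 with an unadjusted p and a fold of at least 1.5, and 0 to 7 with single libraries left out. The count called higher in non-RGC (3) ran from 2 to 3. No alternative gave a called difference between the fractions among the members.

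The basement membrane median in RGC was -0.34 under a minimum mean of 50, a construction that drops the low type IV genes, and 0.058 to 0.37 with single libraries left out. The neural median was 0.57 over the 5 genes tested in RGC and -0.26 over the 3 tested in non-RGC. In RGC it was 0.69 with total reads, 0.44 with the GC trend removed, 0.23 with both trends removed and 0.29 to 0.73 with single libraries left out. The median of the other genes was 0.63 in RGC with the GC trend removed and 0.62 in non-RGC under a minimum mean of 50. The vitreous median in non-RGC was 0.14 with total reads, 0.20 with the GC trend removed, 0.19 with both trends removed and -0.19 to -0.024 with single libraries left out. Col9a2 in RGC turned to 0.48 once the GC trend was taken out, and Col23a1 in RGC ran from -0.25 to 0.22 with single libraries left out, the latter without WT C. Where a construction does not show it, the cause was not tested. No paired analysis was possible because the recovered libraries carry no replicate number. Depth limits Col13a1, Col6a5 and, in non-RGC, Col10a1, Col19a1 and Col28a1, for which a change was not testable at this depth.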
